A study of Homo sapiens with 42 samples.

Results

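A set of 10 genes of the immediate early class, EGR1, EGR3, FOS, FOSB, FOSL1, JUN, JUNB, ATF3, IER2 and IER3, were followed through short-read RNA sequencing of K562 cells, a chronic myeloid leukaemia line that carries the BCR-ABL1 fusion kinase. They were chosen by symbol, and all 10 had a row among the 58243 gene IDs in both count tables. The 42 libraries formed 14 groups of 3 replicates. Poly(A)-selected RNA of whole cells (mRNA) was sequenced from untreated cells (CTRL), from cells in 1 µM imatinib for 1, 6 or 18 h (IM 1h, IM 6h, IM 18h), in 5 µM JTE-607 for 1, 6 or 18 h (JTE 1h, JTE 6h, JTE 18h) and in medium with an added 110 mM KCl for 1 or 3 h (KCl 1h, KCl 3h). RNA of nuclei, depleted of ribosomal RNA, was sequenced from CTRL, IM 1h, IM 18h, JTE 1h and KCl 1h cells. Imatinib inhibits the BCR-ABL1 kinase, JTE-607 inhibits CPSF73, the endonuclease that cuts pre-mRNA at its 3′ end, and added KCl makes the medium hyperosmotic. All treatments ended together and were harvested with the untreated cells. The labels name no vehicle for CTRL, and all groups are a single cell line.

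Immediate early genes are transcribed within minutes of a stimulus because the factors that switch them on are already present and need only be phosphorylated. SRF with its ELK partners acts at CArG boxes downstream of the RAS, RAF, MEK and ERK kinases, CREB acts at cyclic AMP response elements, and the stress kinases p38 and JNK feed into the same promoters. BCR-ABL1 keeps the RAS pathway on in chronic myeloid leukaemia cells without a growth factor. Most of the 10 products are themselves transcription factors. EGR1 and EGR3 are zinc finger factors. FOS, FOSB and FOSL1 pair with JUN or JUNB to form AP-1, ATF3 is a related leucine zipper factor of the stress response, IER2 is a nuclear regulator, and IER3 is a small protein that acts on cell survival.

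The 300-base RefSeq promoter windows (GRCh38.p14, 250 bases before to 50 after a start) were used for 7 of the members, with 2 windows for ATF3. The parts upstream of both the RefSeq start and the gene start in the count tables are shown for 4 members that responded differently: EGR1, whose level fell with imatinib and was not called with KCl, FOS, which moved in opposite directions with the 2 treatments, FOSB, with the largest change after 3 h of KCl, and JUNB, which was called with KCl and not with imatinib in mRNA. Capitals mark CArG boxes, the EGR motif GCGNGGGCG and the core TGACG of the cyclic AMP response element, each on either strand.
EGR1 (chr5:138465229-138465478, plus strand): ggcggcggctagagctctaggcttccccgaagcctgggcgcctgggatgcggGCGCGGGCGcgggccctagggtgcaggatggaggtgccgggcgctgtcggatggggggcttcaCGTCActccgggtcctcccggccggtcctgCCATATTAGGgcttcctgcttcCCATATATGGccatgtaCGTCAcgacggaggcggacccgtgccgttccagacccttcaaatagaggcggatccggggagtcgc
FOS (chr14:75278578-75278773, plus strand): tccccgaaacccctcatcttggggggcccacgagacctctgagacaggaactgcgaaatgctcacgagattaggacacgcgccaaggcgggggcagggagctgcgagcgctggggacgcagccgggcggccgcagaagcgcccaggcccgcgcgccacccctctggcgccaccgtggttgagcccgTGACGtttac
FOSB (chr19:45467746-45467994, plus strand): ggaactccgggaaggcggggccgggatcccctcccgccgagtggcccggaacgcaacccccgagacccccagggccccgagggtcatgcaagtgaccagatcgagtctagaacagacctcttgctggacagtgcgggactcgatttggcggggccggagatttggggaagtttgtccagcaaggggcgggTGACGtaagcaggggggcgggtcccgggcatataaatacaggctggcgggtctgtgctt
JUNB (chr19:12791236-12791485, plus strand): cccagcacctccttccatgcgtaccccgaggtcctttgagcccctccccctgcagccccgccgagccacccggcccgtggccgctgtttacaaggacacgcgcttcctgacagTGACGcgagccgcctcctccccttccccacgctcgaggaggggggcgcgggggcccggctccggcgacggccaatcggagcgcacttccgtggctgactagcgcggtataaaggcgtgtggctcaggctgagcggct
The EGR1 window held 2 CArG boxes, beginning 105 and 83 bases before the start. It was the only one of the 8 member windows used with a CArG box, against 1.29% of the 35116 windows in the table. No window of EGR3, FOSL1 or IER3 was searched, so the statement does not cover these members. The EGR1 window also held 1 EGR motif, 198 bases before the start, which 9.43% of all windows held. Distances are from the RefSeq start. TGACG lay in 6 of the 8 windows (EGR1, FOS, FOSB, JUN, JUNB and IER2) and in 24.6% of all windows, and it lay 64 bases before the start of FOS and 60 before that of FOSB. The full palindrome TGACGTCA was in none of the 8 member windows and in 1.85% of all, and the AP-1 motif TGANTCA was in none of the 8 and in 7.71% of all. These are matches of letters only, in windows too short to hold more distant elements.

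Levels are given as CPM, the read pairs of a gene per 1000000 of its library after scaling with edgeR's TMM factors within each RNA fraction, and a value with ± is the mean ± SD with n = 3 unless it is a log2 fold change, where ± gives the standard error. A gene was called changed where edgeR's quasi-likelihood test gave a Benjamini-Hochberg adjusted p under 0.05 and the log2 fold change (log2FC) lay beyond 0.6. Library totals ran from 16175394 to 25103205 read pairs, except 62953314 and 42474454 in KCl 1h replicates 2 and 3 of mRNA. All 12 markers of K562 cells were detected in every library, and the summed markers of other cell types stayed between 57.7 and 113 CPM, mostly the epithelial gene EPCAM (51 to 108 CPM). Because the libraries are bulk RNA scaled to a fixed total, fewer cells expressing a gene and less RNA per cell cannot be told apart.

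In untreated cells the members covered a wide range of levels. Per kilobase of exon, EGR1 was highest in mRNA at 32.9 ± 18.9 CPM, followed by IER2 at 19.7 ± 3.49, FOSL1 at 14.4 ± 6.49 and JUNB at 13.1 ± 3.66 CPM per kilobase. IER3, JUN and ATF3 stood at 6.47 ± 2.73, 5.59 ± 1.30 and 4.84 ± 6.05 CPM per kilobase. FOS and FOSB were nearly silent, at 0.695 ± 0.388 and 0.333 ± 0.155, and EGR3 was the lowest, at 0.114 ± 0.161 CPM per kilobase. Neighbours in this order had overlapping libraries apart from the steps from JUNB to IER3 and from ATF3 to FOS, and the ATF3 mean itself rested on 1 high library. The order in nuclear RNA was the same except that JUNB passed FOSL1 and JUN passed IER3, with EGR1 at 39.1 ± 14.9 and EGR3 at 0.0402 ± 0.0373 CPM per kilobase.

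**Figure D1:**
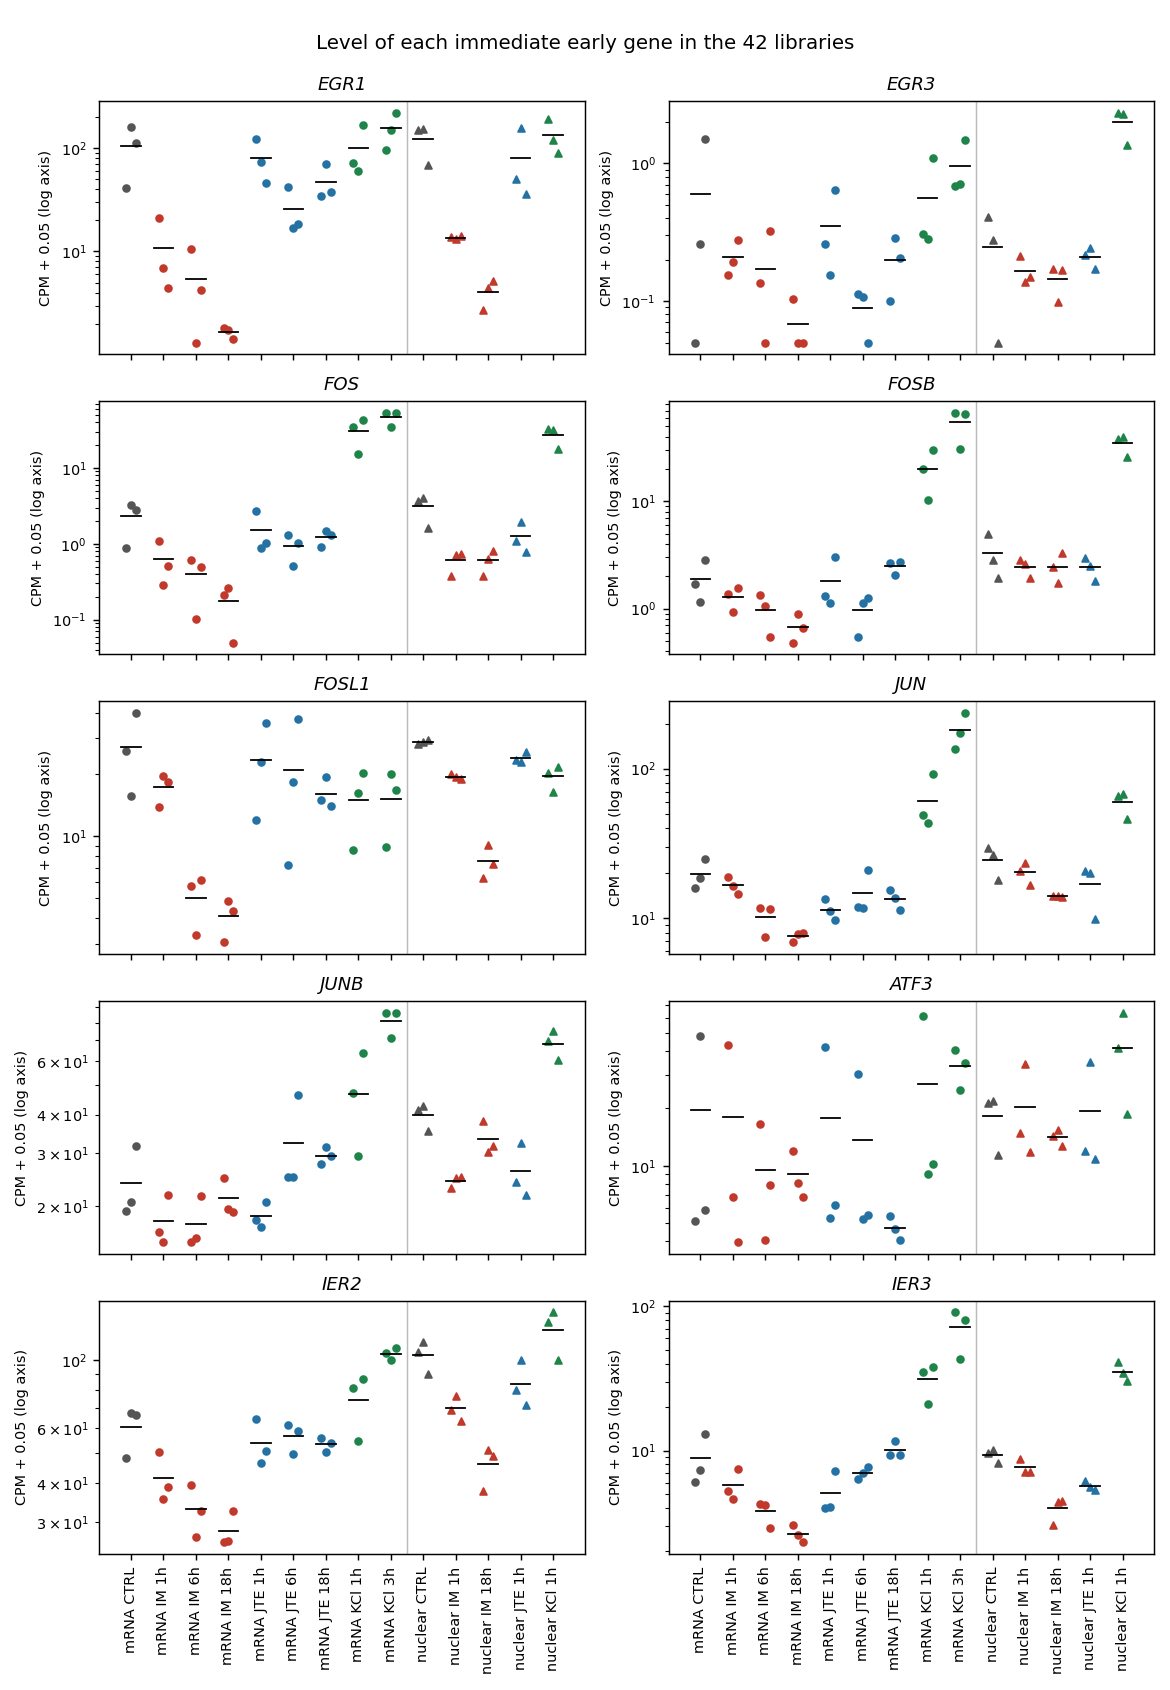
Level of each of the 10 genes in all 42 libraries, as CPM + 0.05 on a log axis; circles are mRNA libraries, triangles nuclear RNA libraries, horizontal bars group means, and colours mark CTRL (grey), imatinib (red), JTE-607 (blue) and KCl (green). EGR1 sits between 40.9 and 159 CPM in CTRL mRNA and at or below 20.8 CPM in every imatinib library, while FOS, FOSB, JUN and IER3 are highest in KCl.

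Imatinib lowered most of the members, and more of them were called at each later time. In mRNA, 0 of the 10 genes were called after 1 h, 6 were lower after 6 h and 8 were lower after 18 h. Of all 18095 genes tested, 0.0166%, 4.12% and 13.2% were called lower at these times. At 1 h edgeR gave 3 of the members an unadjusted p under 0.05, all lower, and DESeq2 called 1. The median log2FC over the 10 members was -0.59, -1.13 and -1.65, against 0.00, 0.04 and 0.04 over all genes tested. In nuclear RNA 0 of 10 were called after 1 h and 6 were lower after 18 h, where 0.041% and 15.4% of the 21929 genes tested were called lower. At 1 h in nuclei 5 members had an unadjusted p under 0.05, all lower. DESeq2 and a fit blocked on the replicate number each called 3 there, with 0.0747% and 0.246% of all genes called lower. The comparisons with CTRL share its libraries. The study's own list of library totals gives the first and second untreated mRNA libraries the opposite numbers from the labels. With these 2 numbers exchanged, an alternative chosen after seeing the data, same-numbered libraries deviated together in 7 of the 8 mRNA comparisons with CTRL. Blocked on the exchanged numbers, EGR3 was added at 6 h (log2FC -2.01, adjusted p = 0.0466, with 5.31% of all genes called lower), and every other imatinib call in mRNA stayed as it was.

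EGR1 (ENSG00000120738, chr5:138465490-138469315, hg38, plus strand) showed the deepest fall. Its mRNA level was 40.9, 159 and 110 CPM in the CTRL libraries and 20.8, 6.94 and 4.41 CPM after 1 h of imatinib. Every IM 1h library was thus below every CTRL library, and the fitted log2FC was -3.28 ± 0.70 (SE), a ratio of 0.103. The adjusted p of 0.447 missed the threshold, and CTRL itself varied 3.89-fold between libraries. DESeq2, which called 0.0146% of all genes lower, gave an adjusted p of 0.00889 for the same counts. The level went on to 10.6, 1.27 and 4.18 CPM at 6 h (log2FC -4.24 ± 0.74, adjusted p = 0.000603) and 1.79, 1.68 and 1.38 CPM at 18 h (log2FC -5.99 ± 0.85, adjusted p = 1.46e-05).

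The nuclear libraries, in which newly made transcripts weigh more, gave a similar early difference. CTRL stood at 148, 151 and 68.7 CPM, and IM 1h at 13.8, 13 and 13.9 CPM. The log2FC at 1 h was -3.18 ± 0.58 (adjusted p = 0.173), and with the replicate number as a block it was -3.10 with an adjusted p of 0.024. The blocked fit, which applies here because same-numbered nuclear libraries deviated together, called 3 members lower after 1 h, EGR1, FOS (log2FC -2.42, adjusted p = 0.000145) and JUNB (log2FC -0.71, adjusted p = 0.00024), where it called 0.246% of all genes lower. DESeq2 called the same 3 genes, with 0.0747% of all genes called lower. Without CTRL replicate 3 the unblocked fit also called FOS (log2FC -2.75, adjusted p = 0.0156). At 18 h EGR1 was at 2.65, 4.35 and 5.15 CPM in nuclei (log2FC -4.94 ± 0.65, adjusted p = 9.06e-05).

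FOS (ENSG00000170345, chr14:75278774-75282230, plus strand), the founding AP-1 partner, was low before treatment and still fell. Its CTRL mRNA levels were 0.827, 3.20 and 2.73 CPM, from 15, 61 and 49 read pairs. The levels were 0.560, 0.0507 and 0.440 CPM at 6 h (log2FC -2.64 ± 0.68, adjusted p = 0.00993) and 0.163, 0.211 and 0 CPM at 18 h (log2FC -4.10 ± 0.84, adjusted p = 0.000445). No library at 6 or 18 h reached the lowest CTRL library, although the 18 h levels rest on 3, 4 and 0 read pairs. In nuclei FOS went from 3.07 ± 1.30 CPM in CTRL to 0.555 ± 0.202 at 1 h and 0.554 ± 0.218 at 18 h, so its nuclear level was already as low at the first time point as at the last (log2FC at 18 h -2.52 ± 0.47, adjusted p = 0.000402).

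FOSL1 (ENSG00000175592, chr11:65892049-65900573, minus strand), a FOS relative that lasts longer after stimulation, still overlapped CTRL at 1 h of imatinib in mRNA and was called from 6 h on. Its levels were 27.2 ± 12.2 CPM in CTRL, 17.3 ± 3.07 at 1 h, 4.98 ± 1.52 at 6 h and 4.02 ± 0.932 at 18 h. The log2FC against CTRL was -0.65 ± 0.47 at 1 h (adjusted p = 1), -2.45 ± 0.51 at 6 h (adjusted p = 0.00204) and -2.75 ± 0.52 at 18 h (adjusted p = 0.000216). FOSL1 was the only member called between 1 and 6 h of imatinib (log2FC -1.80 ± 0.50, adjusted p = 0.0197), where 3.62% of all genes were called lower. That call was lost without IM 1h replicate 2 or 3 or IM 6h replicate 2 (adjusted p 0.0698, 0.0525 and 0.085), and the blocked fit, which applies between these groups, added JUN (log2FC -0.72, adjusted p = 0.0493, with 4.61% of all genes called lower). In nuclei, where FOSL1 varied little between replicates (28.1, 28.7 and 29.5 CPM in CTRL), it stood at 20, 19.3 and 19 CPM at 1 h, below every CTRL library (log2FC -0.56, adjusted p = 0.197). It was at 6.21, 9.03 and 7.31 CPM at 18 h (log2FC -1.94 ± 0.14, adjusted p = 1.86e-09). Between 6 and 18 h of imatinib 0 of 10 members were called by edgeR or by DESeq2, and 0 had an unadjusted p under 0.05, while 4.41% of all genes were called.

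The JUN genes parted. JUN (ENSG00000177606, chr1:58780788-58784327, minus strand, a single exon) went from 19.8 ± 4.61 CPM in CTRL to 10.1 ± 2.32 at 6 h (log2FC -0.96 ± 0.28, adjusted p = 0.0196) and 7.55 ± 0.621 at 18 h (log2FC -1.39 ± 0.28, adjusted p = 0.000427). The 6 h call was lost without CTRL replicate 3 or IM 6h replicate 2 (adjusted p 0.0874 and 0.0762), and the nuclear 18 h call (24.5 ± 5.93 to 14 ± 0.108 CPM, log2FC -0.81, adjusted p = 0.0191) was lost in 5 of the 6 fits that left out 1 library, with adjusted p from 0.0514 to 0.105 (without CTRL 1 or 2 or any IM 18h library). JUNB (ENSG00000171223, chr19:12791496-12793315, plus strand), which opposes JUN at some AP-1 targets, was the exception among the members with steady replicates. Its mRNA levels were 19.3, 20.7 and 31.5 CPM in CTRL, 15.2, 15.7 and 21.6 at 6 h, and 24.8, 19.6 and 19.2 at 18 h. These groups overlapped, and the log2FC at 18 h was -0.17 ± 0.25 (adjusted p = 0.613). In nuclei JUNB was below every CTRL library at 1 h (41.3, 42.7 and 35.3 CPM in CTRL, 22.9 to 24.9 at 1 h), and at 18 h it stood at 33.3 ± 4.23 CPM, overlapping CTRL (log2FC -0.26 ± 0.14, adjusted p = 0.134). At that time JUNB was the highest of the 10 genes per kilobase in both fractions, at 11.6 ± 1.71 in mRNA and 18.3 ± 2.33 CPM per kilobase in nuclei, whereas EGR1 had led in CTRL.

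IER2 and IER3 were called lower at 6 and 18 h of imatinib in mRNA. IER2 (ENSG00000160888, chr19:13150415-13154908, plus strand) went from 60.6 ± 10.7 CPM in CTRL mRNA to 41.6 ± 7.84, 32.8 ± 6.31 and 28.1 ± 3.85 CPM at 1, 6 and 18 h. It was called at 6 h (log2FC -0.88 ± 0.18, adjusted p = 0.00128) and at 18 h (log2FC -1.11 ± 0.18, adjusted p = 2.66e-05), and in nuclei at 18 h (103 ± 12.2 to 45.9 ± 7.25 CPM, log2FC -1.17 ± 0.15, adjusted p = 4.34e-06). NACC1, which ends 9274 bases upstream of IER2 on the same strand, was also called lower at 18 h (log2FC -1.02 in both fractions), and at KCl 3h, where IER2 was called higher, NACC1 was called lower (log2FC -0.68, adjusted p = 0.00762). IER3 (ENSG00000137331, chr6:30743199-30744554, minus strand, a single exon) went from 8.78 ± 3.71 to 3.73 ± 0.755 CPM at 6 h (log2FC -1.23 ± 0.32, adjusted p = 0.00996) and 2.59 ± 0.369 at 18 h (log2FC -1.76 ± 0.33, adjusted p = 0.00018). The 6 h call of IER3 was lost without CTRL replicate 3 or IM 6h replicate 3 (adjusted p 0.0833 and 0.0514). Exons of IER2 share 946 bases, those of IER3 359, those of JUNB 259 and those of EGR3 164 bases with a gene on the opposite strand. The counting options that the study gives hold no strand option, and its read table lists ambiguous read pairs as unassigned. Pairs in the shared bases may thus be missing from the counts of these members. Opposite-strand reads outside the shared bases could not be told apart.

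FOSB and EGR3 were called lower in mRNA only at 18 h, on few reads. FOSB (ENSG00000125740, chr19:45467995-45475179, plus strand) went from 1.65, 1.10 and 2.79 CPM to 0.434, 0.842 and 0.605 CPM (log2FC -1.54 ± 0.56, adjusted p = 0.0282), a call lost without CTRL 3, IM 18h 1 or IM 18h 3 (adjusted p 0.145, 0.105 and 0.0677). Its nuclear level of 3.22 ± 1.58 CPM in CTRL and 2.42 ± 0.774 at 18 h overlapped (log2FC -0.44 ± 0.33, adjusted p = 0.301). EGR3 (ENSG00000179388, chr8:22687659-22693302, minus strand) had 0, 4 and 26 read pairs in the CTRL libraries and 1, 0 and 0 at 18 h (adjusted p = 0.0149). That call rested on CTRL replicate 3, without which the adjusted p was 0.321, and it was also lost without IM 18h replicate 2 or 3 (adjusted p 0.0504 and 0.05). ATF3 was not called at any time of imatinib in either fraction.

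The summed level of the 12 K562 markers, mainly erythroid genes, moved in the same libraries, from 4871 to 6098 CPM in CTRL mRNA to 12021 to 16656 CPM at IM 18h. Of the 12, 9 were called higher there, where 17.2% of all genes were called higher. At IM 1h the sum was 4750 to 6229 CPM. The part of these markers in the fall of the members was not tested.

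**Figure D2:**
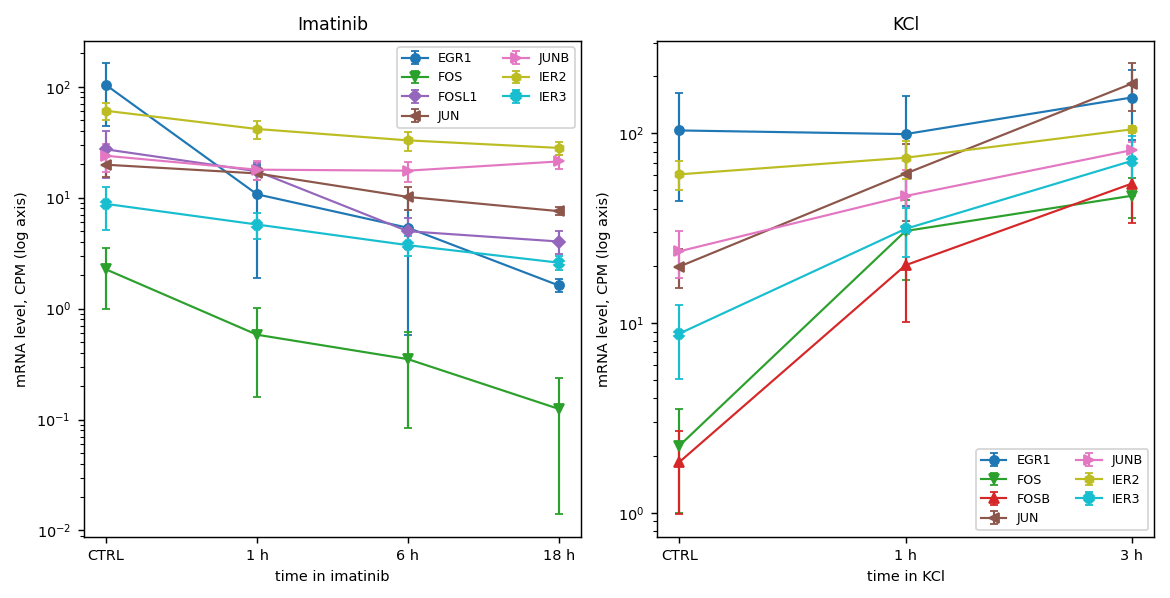
Mean mRNA level in CPM (log axis) of the genes named in the legend in CTRL and at each time of imatinib (left) or KCl (right); error bars are the SD of 3 libraries and times are equally spaced rather than to scale. EGR1 goes from 103 to 1.62 CPM over 18 h of imatinib while JUNB stays between 17.5 and 23.8 CPM, and JUN goes from 19.8 to 182 CPM over 3 h of KCl while EGR1 goes from 103 to 154 CPM.

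KCl raised a subset of the members, and EGR1 was not in it. In mRNA 5 of 10 genes were called higher after 1 h (FOS, FOSB, JUN, JUNB and IER3), and 6 after 3 h, with IER2 added. Of all genes tested, 2.51% and 4.55% were called higher. In nuclear RNA 6 of 10 were called higher after 1 h, EGR3 with the 5 genes found in mRNA, against 15.3% of all genes. EGR3 had enough nuclear reads to be tested only through its KCl libraries. Median log2FC over the members was 0.69 and 1.28 in mRNA and 1.23 in nuclei, beside 0.01, 0.02 and 0.02 over all genes tested.

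FOS and FOSB, nearly silent before, had the largest log2FC of the 10 members in mRNA. FOS was at 34.1, 15.3 and 42.1 CPM after 1 h and 53.3, 34.1 and 52.9 CPM after 3 h, from 0.827, 3.20 and 2.73 in CTRL. The log2FC was 3.75 ± 0.49 (13.5-fold, adjusted p = 2.89e-05) and 4.37 ± 0.50 (20.7-fold, adjusted p = 1.7e-06). FOSB was at 20, 10.2 and 30.2 CPM after 1 h and 66.9, 30.5 and 65.2 CPM after 3 h, from 1.85 ± 0.860 CPM. Its log2FC was 3.45 ± 0.43 (10.9-fold, adjusted p = 1.49e-05) and 4.88 ± 0.45 (29.4-fold, adjusted p = 8.34e-08). Every KCl library of both genes exceeded every CTRL library, and replicate 2 was the lowest of the 3 at both times. In nuclei FOS reached 27.2 ± 8.09 CPM (log2FC 3.14 ± 0.33, adjusted p = 2.52e-06) and FOSB 34.7 ± 7.70 CPM (log2FC 3.42 ± 0.29, adjusted p = 1.92e-07) after 1 h.

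JUN, JUNB and IER3 rose from a higher base. JUN was at 48.8, 43.0 and 91.7 CPM after 1 h and at 136, 174 and 237 CPM after 3 h, from 16.0, 18.5 and 24.9 in CTRL (log2FC 1.63 ± 0.27, adjusted p = 0.000362, and 3.20 ± 0.28, adjusted p = 4.26e-08). IER3 was at 31.3 ± 9.08 CPM and 71.4 ± 25 CPM (log2FC 1.83 ± 0.30, adjusted p = 0.000261, and 3.02 ± 0.31, adjusted p = 2.58e-07). JUNB was at 47.0, 29.2 and 63.7 CPM after 1 h, where the lowest library lay below the highest CTRL library of 31.5 CPM. Its 1 h call (log2FC 0.97 ± 0.25, adjusted p = 0.017) was lost when only these 6 libraries were fitted (adjusted p = 0.159) and without CTRL 1, CTRL 2 or KCl 1h 3 (adjusted p 0.115, 0.0847 and 0.157). After 3 h JUNB stood at 81.3 ± 8.65 CPM, above every CTRL library (log2FC 1.77 ± 0.25, adjusted p = 2.21e-05). IER2 was called after 3 h only, at 100 to 109 CPM from 60.6 ± 10.7 (log2FC 0.79 ± 0.17, adjusted p = 0.00215). In nuclei JUN, JUNB and IER3 had log2FC of 1.28 ± 0.25, 0.78 ± 0.14 and 1.92 ± 0.15 after 1 h.

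Between 1 and 3 h of KCl, 3 members rose further, against 1.37% of all genes. JUN rose 2.98-fold (log2FC 1.58 ± 0.26, adjusted p = 0.000584), FOSB 2.7-fold (log2FC 1.43 ± 0.36, adjusted p = 0.0198) and IER3 2.29-fold (log2FC 1.19 ± 0.28, adjusted p = 0.0109). With the replicate block, which applies to this pair of groups, JUNB was added (log2FC 0.85, adjusted p = 0.00259), with 1.92% of all genes called higher. Without KCl 1h replicate 3 JUNB was called in the unblocked fit too (log2FC 1.09, adjusted p = 0.011). FOSB lost its call when only these 6 libraries were fitted (adjusted p = 0.145) and without KCl 1h 1 or 2 or KCl 3h 1 or 3 (adjusted p 0.0601, 0.131, 0.0988 and 0.0859). IER3 lost its call in the 6-library fit (adjusted p = 0.0955) and without KCl 1h 2 or KCl 3h 1 (adjusted p 0.0943 and 0.0732). FOS did not pass between these times (log2FC 0.62 ± 0.41, adjusted p = 0.568). After 3 h, IER3 (52.7 ± 18.4), JUN (51.5 ± 14.5), EGR1 (49.1 ± 19.7) and JUNB (44.7 ± 4.75 CPM per kilobase) were the 4 highest of the 10 genes, within one another's spread.

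EGR1, EGR3 and FOSL1 were not called with KCl in mRNA. EGR1 was at 71.2, 60.2 and 165 CPM after 1 h and 95.1, 149 and 218 CPM after 3 h, overlapping the CTRL range of 40.9 to 159 (log2FC -0.06 ± 0.62 and 0.58 ± 0.63, adjusted p = 1 and 0.618). In nuclei its level was 132 ± 51.1 CPM beside 123 ± 46.7 in CTRL (log2FC 0.10 ± 0.52, adjusted p = 0.925). FOSL1, the fellow FOS gene, lay on the lower side, at 15 ± 5.96 CPM after 1 h in mRNA (log2FC -0.84, adjusted p = 0.448) and at 20.4, 16.4 and 21.8 CPM in nuclei, below all CTRL libraries (log2FC -0.56 ± 0.13, adjusted p = 0.00196). The nuclear value passed the p but not the fold threshold, and passed both when only the 6 libraries were fitted (log2FC -0.60, adjusted p = 0.00421) or without KCl 1h 3 (log2FC -0.64, adjusted p = 0.00172). EGR3 had 43, 48 and 27 nuclear read pairs after 1 h of KCl beside 8, 5 and 0 in CTRL (log2FC 3.24 ± 0.46, adjusted p = 1.42e-05). EGR3 had enough reads to be tested in nuclei only through these KCl libraries, the group where it was high. In mRNA its counts were 5, 14 and 45 after 1 h and 13, 14 and 29 after 3 h, overlapping the CTRL counts of 0, 4 and 26 (log2FC -0.05 ± 0.78 and 0.72 ± 0.78), and without CTRL replicate 3 the 3 h comparison was called (log2FC 3.00, adjusted p = 0.0429).

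The share of reads from mitochondrial genes was 5.83% to 7.21% in the KCl 3h libraries beside 10% to 10.9% in CTRL mRNA, and its part in these results was not tested. Thinning every library to the smallest total of its fraction, which removes the extra depth of KCl 1h replicates 2 and 3, left the same 5 and 6 members called.

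**Figure D3:**
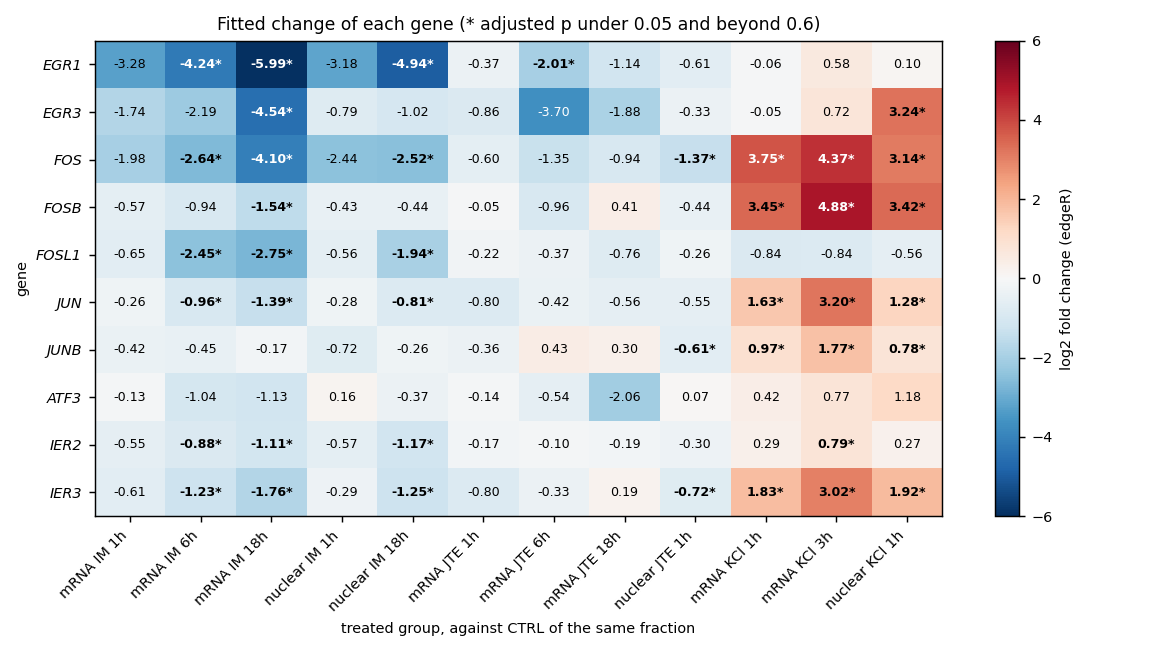
Fitted log2 fold change of each gene (rows) in each of the 12 treated groups against CTRL of the same fraction (columns), from blue (lower) to red (higher); an asterisk marks adjusted p under 0.05 with a log2 fold change beyond 0.6. The imatinib columns hold 20 asterisks, all in cells below 0, the KCl columns 17, all above 0, and the JTE-607 columns 4, all below 0.

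JTE-607 moved few of the members. In mRNA 0 of 10 were called after 1 h, EGR1 alone was called lower after 6 h and 0 were called after 18 h, where 0.464%, 6.47% and 2.09% of all genes were called lower. Unadjusted, 2 members had p under 0.05 at 1 h and 0 at 18 h, and DESeq2 called 0 at both times. JUN was below every CTRL library at 1 h, at 9.71 to 13.3 CPM (log2FC -0.80 ± 0.28, adjusted p = 0.278). In nuclei 3 of 10 were called lower after 1 h, FOS, JUNB and IER3, against 1.51% of all genes.

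EGR1 mRNA was at 121, 73.4 and 45.5 CPM after 1 h, 41.8, 16.8 and 18.2 after 6 h, and 34.1, 69.1 and 37.2 after 18 h. The 6 h group overlapped CTRL by 1 library (log2FC -2.01 ± 0.66, adjusted p = 0.0378), and the call was lost without CTRL 2 or 3 or JTE 6h 2 or 3 (adjusted p 0.157, 0.0763, 0.121 and 0.144). EGR3 had 1, 1 and 0 read pairs after 6 h, beside 0, 4 and 26 in CTRL (adjusted p = 0.0531). The fits without CTRL replicate 1 or 2 called EGR3 as well (adjusted p 0.0134 and 0.0377), and FOS was added without CTRL replicate 1 (adjusted p = 0.0491). Blocked on the exchanged numbers of CTRL 1 and 2, EGR1, EGR3 and FOS were called at 6 h (adjusted p 0.0258, 0.00618 and 0.0257), where 7.79% of all genes were called lower. In nuclei IER3 went from 9.61, 10.1 and 8.17 CPM to 6.10, 5.51 and 5.28 (log2FC -0.72 ± 0.16, adjusted p = 0.005), and every fit kept this call. FOS went from 3.66, 3.96 and 1.58 CPM to 1.03, 1.89 and 0.726, an overlap of 1 library with CTRL (log2FC -1.37 ± 0.40, adjusted p = 0.0411), and JUNB from 39.8 ± 3.98 to 26.1 ± 5.54 CPM (log2FC -0.61 ± 0.14, adjusted p = 0.00566). Both lost the call in the 6-library fit and without CTRL 1, CTRL 2, JTE 1h 1 or JTE 1h 3, FOS on the p (0.0722 to 0.185) and JUNB on the fold (log2FC -0.59 to -0.50).

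Between times of JTE-607, JUNB was called higher from 1 to 6 h (18.6 ± 1.83 to 32.1 ± 12.3 CPM, log2FC 0.79 ± 0.25, adjusted p = 0.0379), where 5.1% of all genes were called higher. JTE 6h replicate 3 stood at 46.4 CPM beside 25 in both others, and without it the log2FC was 0.43 (adjusted p = 0.326). The call was also lost without any JTE 1h library (adjusted p 0.0573 to 0.129) and in the 6-library fit (adjusted p = 0.125). From 6 to 18 h 0 of 10 were called by edgeR, with 7.76% of all genes called higher, and 1 had an unadjusted p under 0.05. That gene was FOSB, at 0.925 ± 0.376 and 2.44 ± 0.363 CPM with no overlap (log2FC 1.37 ± 0.51, adjusted p = 0.0545). It was called by DESeq2 (adjusted p = 0.0191, with 6.48% of all genes called higher) and in the blocked fit (adjusted p = 0.0126, with 9.57% of all genes called higher).

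KCl and JTE-607 were also compared with each other at 1 h, in both fractions. Imatinib was given for 1 h in both fractions too and was not part of this comparison. In mRNA 5 members were higher in KCl 1h than in JTE 1h, FOS (log2FC 4.35 ± 0.51, adjusted p = 9.32e-06), FOSB (3.50 ± 0.43, 1.41e-05), IER3 (2.63 ± 0.31, 6.64e-06), JUN (2.43 ± 0.28, 5.98e-06) and JUNB (1.33 ± 0.25, 0.00157), against 2.56% of all genes. In nuclei the same 5 and EGR3 were higher, against 10.7% of all genes, with EGR3 tested there only through its reads in KCl 1h. IER2 was near the thresholds in both fractions (log2FC 0.46 ± 0.17, adjusted p = 0.148, and 0.57 ± 0.15, adjusted p = 0.00974), and it passed in mRNA without KCl 1h replicate 2 (log2FC 0.64, adjusted p = 0.0357) and in nuclei without KCl 1h replicate 3 (log2FC 0.71, adjusted p = 0.0016). EGR1 did not differ beyond its spread in either fraction (log2FC 0.30 ± 0.63 in mRNA and 0.72 ± 0.52 in nuclei, adjusted p = 0.959 and 0.487). In nuclei the EGR1 value rested on JTE 1h replicate 2, at 155 CPM beside 50 and 35.7. Without that library the log2FC was 1.62 (adjusted p = 0.0179), IER2 was also called (log2FC 0.72, adjusted p = 0.00287), and EGR1 was also called lower in JTE 1h than in CTRL (log2FC -1.52, adjusted p = 0.0434).

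ATF3 (ENSG00000162772, chr1:212565334-212620777, plus strand) differed widely between replicates of a group. In mRNA it was at 5.07, 47.8 and 5.80 CPM in CTRL, and 1 library stood apart in several treated groups too, at 43.3 beside 6.80 and 3.90 CPM in IM 1h, 42 beside 5.28 and 6.19 in JTE 1h, 30.3 beside 5.18 and 5.46 in JTE 6h, and 61 beside 9.01 and 10.1 in KCl 1h. By the labels the high library was replicate 2 in CTRL and replicate 1 in each of these treated groups. The study's own list of library totals numbers the first and second untreated mRNA libraries the other way round, which would make it replicate 1 in CTRL too. In KCl 3h all 3 libraries were high, at 40.4, 25 and 34.5 CPM, above 2 of the 3 CTRL libraries (log2FC 0.77 ± 1.04, adjusted p = 0.703, and 1.51 with an adjusted p of 0.0622 when blocked on the exchanged numbers). In nuclei replicate 2 was the highest in every group, and KCl 1h stood at 41.6, 63.9 and 18.6 CPM beside 21.3, 21.9 and 11.3 in CTRL (log2FC 1.18 ± 0.58, adjusted p = 0.183). Each nuclear KCl library was above the CTRL library of its own number, and the blocked fit called ATF3 higher against CTRL (log2FC 1.10, adjusted p = 0.0281, with 16.3% of all genes called higher) and against JTE 1h (log2FC 1.13, adjusted p = 0.0348, with 11.7%).

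**Figure D4:**
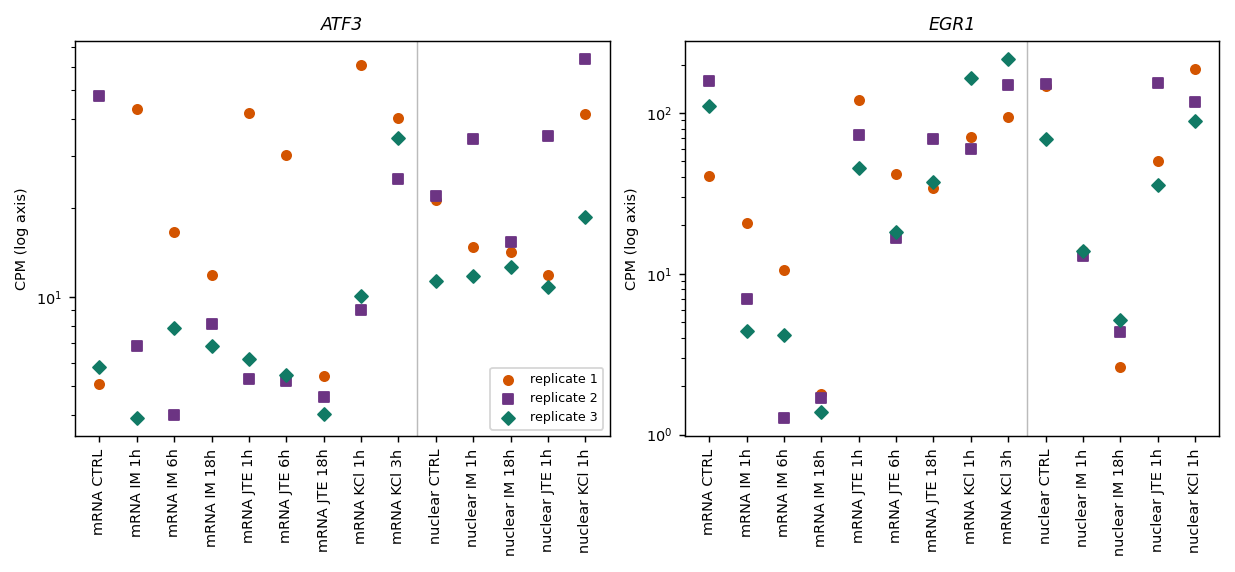
Level of ATF3 (left) and EGR1 (right) in CPM (log axis) in each library, with the replicate number of the labels given by shape and colour (circle 1, square 2, diamond 3). ATF3 replicate 1 is the highest in the treated mRNA groups whereas replicate 2, at 47.8 CPM, is the highest in mRNA CTRL and in all nuclear groups; EGR1 in imatinib is below CTRL for every number.

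The responses of mRNA and nuclear RNA were compared directly in a fit of 12 libraries for each of the 4 treatments measured in both. For IM 1h, IM 18h, JTE 1h and KCl 1h, 0 members were called by edgeR or DESeq2, while 0%, 0.0901%, 0.0605% and 0.668% of all genes were called, and 0, 2, 0 and 1 members had an unadjusted p under 0.05. EGR3 had too few reads to be tested in the first 3, and for KCl 1h its difference was 3.18 ± 1.41 (adjusted p = 0.492). It had enough reads for that test only through its nuclear KCl 1h libraries, the group where it was high. No conclusion on the fractions is drawn from EGR3. Blocked on the replicate numbers with CTRL 1 and 2 of mRNA exchanged, EGR3 (3.18 ± 0.66, adjusted p = 0.00154) and FOS (-0.71 ± 0.20, adjusted p = 0.0148) were called for KCl 1h, with 4.66% of all genes called, and 0 members for the other 3. That block was chosen after seeing the data, and the same limit on EGR3 holds there. For EGR1 the difference of the log2FC (nuclear minus mRNA) was 0.11 ± 0.90 at IM 1h and 0.07 ± 0.81 at KCl 1h, so a difference of 1 on the log2 scale would not have been detectable. IER2 was measured more tightly, with differences of -0.02 ± 0.22, -0.01 ± 0.22, -0.10 ± 0.23 and -0.12 ± 0.26. At IM 18h the median difference was 0.82 over the 9 members tested, beside -0.02 over all genes tested, and none of the 9 was called. The largest were FOS at 1.65 ± 1.01 (adjusted p = 1) and FOSB at 1.16 ± 0.59 (adjusted p = 1). FOS rests on 3, 4 and 0 read pairs in IM 18h mRNA. The fractions also differ in library preparation, poly(A) selection against ribosomal depletion, and the 2 cannot be told apart.

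Of 13 AP-1 family genes tested in mRNA, members included, 4 were lower at IM 6h and 7 at IM 18h, with 0 and 1 higher, against 4.12% and 13.2% of all genes lower and 5.82% and 17.2% higher. Of these, 1 and 3 of the lower genes and the 1 higher gene, ATF7, were not among the 10 members. In KCl 5 were higher at both times (2.51% and 4.55% of all genes), of which 1, ATF2, was not a member. With JTE-607 2 were lower at 6 h and 1 higher at 18 h, none of them members, where 6.47% of all genes were lower and 3.29% higher. JUND, a further JUN gene, went from 107 ± 13.9 CPM in CTRL to 61.6 ± 2.99 at IM 6h and 59.8 ± 3.23 at IM 18h (log2FC -0.80 and -0.85, adjusted p = 0.00124 and 0.000172). JUND was also 1 of the 2 lower at JTE 6h, at 63.9 ± 4.84 CPM (log2FC -0.75, adjusted p = 0.00142). ATF2, a stress kinase target, was higher in KCl (log2FC 0.62 at both times). Of 4 genes tested of the EGR family and its NAB corepressors, 2 were lower at IM 6h, 3 at IM 18h and 1 at JTE 6h, with 0 called in KCl mRNA. In mRNA the only called gene among them that was not a member was NAB2, a corepressor of EGR1, called at IM 6h and 18h. It went from 37 ± 4.89 to 16.4 ± 0.572 CPM at IM 18h (log2FC -1.17, adjusted p = 0.000347). In nuclei 5 of the list were tested. At KCl 1h 2 were higher, EGR3 and EGR2 (15.3% of all genes), and at IM 18h 1 was lower (15.4%). EGR2 was low, at 0.952 ± 0.059 CPM in KCl 1h from 0.203 ± 0.0388 in CTRL (log2FC 2.21, adjusted p = 0.000232).

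Of 26 further immediate early genes tested in mRNA, none a member, 1, 8 and 12 were lower with imatinib at 1, 6 and 18 h, with 0, 1 and 4 higher. Over all genes 0.0166%, 4.12% and 13.2% were lower and 0%, 5.82% and 17.2% higher. With KCl 4 and 14 of the 26 were higher at 1 and 3 h and 0 lower, where 2.51% and 4.55% of all genes were higher. With JTE-607 2, 0 and 0 were lower at 1, 6 and 18 h and 0 higher, where 0.464%, 6.47% and 2.09% of all genes were lower. In nuclei 24 genes of the same list were tested. After 1 h of JTE-607 6 were lower there (BTG2, DUSP1, HES1, PLK3, SGK1 and ZFP36), against 1.51% of all genes. At IM 1h 1 was lower (0.041% of all genes), and at IM 18h 11 were lower and 4 higher (15.4% and 17.2%). At KCl 1h 8 were higher in nuclei (15.3% of all genes). ZFP36, which speeds the decay of AU-rich mRNAs, was the 1 called at IM 1h, at 5.99 ± 0.0608 CPM from 11.4 ± 0.617 (log2FC -0.93 ± 0.15, adjusted p = 0.0114), and in nuclei it was also called at that time (log2FC -1.02, adjusted p = 0.00407). HES1, a Notch target, and PLK3, a stress kinase, had the largest falls among them at IM 18h (log2FC -3.67 and -3.18). In KCl, GADD45B, a stress-induced growth arrest gene, went from 0.771 ± 0.558 CPM to 15 ± 7.77 after 1 h and 111 ± 55.7 after 3 h (log2FC 4.28 and 7.18), and SGK1, an osmotically regulated kinase, from 7.27 ± 2.87 to 36.8 ± 8.85 CPM after 1 h (log2FC 2.34). The 2 genes lower in mRNA after 1 h of JTE-607 were ZFP36 (log2FC -1.10, adjusted p = 0.000141) and DUSP1, a MAP kinase phosphatase (log2FC -0.78, adjusted p = 0.0099), and both were among the 6 lower in nuclei (log2FC -0.90, adjusted p = 0.00022, and -0.96, adjusted p = 4.42e-05).

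Of 22 genes of the RAS and MAP kinase cascade tested in mRNA, 0 were called at IM 1h, IM 6h, JTE 1h, JTE 6h or KCl 1h. Over all genes 5.82%, 6.73% and 2.51% were higher and 4.12%, 6.47% and 2.94% lower at IM 6h, JTE 6h and KCl 1h. At IM 1h 0% were higher and 0.0166% lower, and at JTE 1h 0.387% and 0.464%. At IM 18h 2 of the 22 were higher and 1 lower, MAPK14 and MAPK3 (higher) and HRAS (lower). Their log2FC was 0.69, 0.66 and -0.60, beside 17.2% of all genes higher and 13.2% lower. At JTE 18h RPS6KA1, a kinase downstream of ERK, was higher (log2FC 0.62, adjusted p = 0.00305), and at KCl 3h SOS1, a RAS activator, was higher (log2FC 0.74, adjusted p = 1.66e-05), beside 3.29% and 4.55% of all genes. Of the 6 genes for SRF and its partners, ELK1 was lower at IM 6h, where 4.12% of all genes were lower. At IM 18h ELK1, ELK3 and SRF were lower (log2FC -0.71, -0.79 and -0.64), beside 13.2% of all genes. At KCl 3h ELK4 and ELK3 were lower (log2FC -0.84 and -0.60), where 7.33% of all genes were lower. In the other mRNA comparisons with CTRL 0 of the 6 were called. RNA levels say nothing of phosphorylation, the step at which this pathway acts.

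Over the 9 mRNA groups, genes whose mean log2(CPM + 0.5) followed that of EGR1 closely among 9450 candidates included BHLHE40 (r = 0.945) and ZSCAN29 (0.94). The closest to FOS were UVRAG (0.977), SEC24A (0.969) and ZEB1 (0.966), for JUN SNAI1 (0.986), GADD45B (0.98) and ZC3H12A (0.977), and for ATF3 ZNF143 (0.973), HMGA1P3 (0.963) and MLLT10 (0.958). These are descriptions over 9 points that share their libraries, picked as the highest of many.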

How the data were processed

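K562 RNA was sequenced as poly(A) mRNA of whole cells (27 libraries) and as ribosomal RNA-depleted nuclear RNA (15 libraries). The authors deposited counts, not normalized, of the read pairs on each gene. Per the study's methods the authors trimmed and deduplicated reads with fastp, aligned them to hg38 with STAR, kept unique mappers, and counted exons per gene with featureCounts, and no strand option or annotation release is given in the sources used here. The submitters' processing notes name GRCh38.p14. Read pairs with the same ends were collapsed without molecular identifiers, which removes some true molecules of strongly expressed genes. IDs were matched to GENCODE 44 symbols (41836 of 58243).

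Groups came from the sample labels. Counts were tested with edgeR 4.0.16 (R 4.3.3) by the quasi-likelihood test, with TMM scaling, filterByExpr and robust dispersions, all libraries of a fraction in 1 fit, which left 18095 mRNA and 21929 nuclear genes. In all, 12 comparisons with CTRL, 7 between treated groups and 4 of nuclear against mRNA responses were made, and p-values were adjusted by Benjamini-Hochberg over all genes tested. The code was tested on simulated data. DESeq2 1.42.0, RLE scaling, no filter, no fold threshold, only the 2 groups, a replicate block, thinning and leaving out each library were the alternatives. Same-numbered nuclear libraries deviated together (correlations 0.235 to 0.891 over genes with a mean of at least 10 CPM), as did those of 5 pairs of treated mRNA groups, whereas treated mRNA and CTRL did not by the labels (-0.368 to 0.877). A block with mRNA CTRL 1 and 2 exchanged, as the study's own list of library totals numbers them, was added after seeing the data, and all correlations were then over 0.1 except in JTE 18h (0.055 to 0.877 over all). The labels call the replicates biological, and no 2 agreed within sampling noise (chi-square per gene 2.23 to 54.2). The named genes were all 10 members, called genes of fixed lists (at most 3 per list and comparison, by size), and the 3 nearest patterns for EGR1, FOS, JUN and ATF3 (highest group mean at least 10 CPM), of which 1 for EGR1 is not reported here. Members and lists were chosen with earlier results of these data known. Promoter windows are RefSeq's, and FOSL1, IER3 and EGR3 windows were not used here.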

Additional observations from a re-analysis of the deposited data

Results flagged for a closer look

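A total of 5 member genes differed between time points of 1 treatment by a test of the difference itself (edgeR's quasi-likelihood test, adjusted over all genes). FOSL1 mRNA fell from 1 to 6 h of imatinib (log2FC -1.80, adjusted p = 0.0197, lower in every library). JUNB rose from 1 to 6 h of JTE-607 (log2FC 0.79, adjusted p = 0.0379, higher in every library). From 1 to 3 h of KCl, FOSB (log2FC 1.43, adjusted p = 0.0198), JUN (log2FC 1.58, adjusted p = 0.000584) and IER3 (log2FC 1.19, adjusted p = 0.0109) rose, each higher in every 3 h library. JUN was the only 1 of the 5 that kept its call without any single library.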

How the results depend on the processing

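Of 327 counts of called members recomputed under an alternative, 281 lay within 1.5 times the reported count. Among 3194 recomputed fold changes of single members, none changed sign where the gene was called in either fit. Uncalled values near 0 could change sign, as for EGR1 at KCl 1h in mRNA, at 0.07 when blocked on the exchanged CTRL numbers. Of the 57 calls of a member in a comparison, 44 held under every alternative. DESeq2 called 1 member at IM 1h in mRNA, 2 at JTE 6h, 3 at IM 1h in nuclei and 1 between JTE 18h and 6h. Without the low-count filter the counts were 2 at IM 1h, 2 at JTE 1h, 4 at JTE 6h and 4 at JTE 18h in mRNA, 3 at IM 1h in nuclei, 5 for IM 6h against 1h, 1 for IM 18h against 6h, 4 for JTE 6h against 1h, 3 for JTE 18h against 6h and 5 for KCl 3h against 1h. That fit gave far smaller p-values (1.14e-93 for EGR1 at IM 1h), and the cause was not tested. With only the 2 groups fitted the counts were 1 at IM 1h and 1 at JTE 1h in nuclei, 2 for IM 6h against 1h, 0 for JTE 6h against 1h, 1 for JTE 18h against 6h and 1 for KCl 3h against 1h. Thinned to the smallest total, 2 were called at JTE 6h and 1 for JTE 18h against 6h. With the replicate block the counts were 3 at IM 1h in nuclei, 2 for IM 6h against 1h, 1 for JTE 18h against 6h and, where the numbers did not pair the samples, 2 at JTE 6h, where EGR3 was added (adjusted p = 0.00814). The block moved no other count by over 1.5 times. In mRNA not every treated library correlated best with the CTRL library of its own number: IM 1h replicate 1 did so with CTRL 2 (0.831) and replicate 2 with CTRL 1 (0.834). The study's own list of library totals numbers these untreated libraries the other way round. The replicate block with the numbers of CTRL 1 and 2 exchanged, chosen after seeing the data, called 3 members at JTE 6h and 2 in the nuclear against mRNA responses to KCl 1h, moved no other count by over 1.5 times and lost no call. Leaving out 1 library gave 0 to 3 calls at JTE 6h, 0 to 1 at IM 1h and 1 to 4 at JTE 1h in nuclei, 0 to 1 for IM 6h against 1h, 0 to 1 for JTE 6h against 1h and 1 to 4 for KCl 3h against 1h. Depth limits FOS, FOSB and EGR3 in mRNA of untreated and imatinib-treated cells, which had 0 to 61 read pairs a library.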
